A study of Homo sapiens with 6 samples.

Results

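The 10 genes described here encode the receptor that senses lipopolysaccharide (LPS, the glycolipid of the outer membrane of Gram-negative bacteria), 2 related Toll-like receptors and the adaptor proteins that bind their cytoplasmic TIR domains. They were taken by gene symbol from the deposited table of 19755 protein-coding genes, and all 10 were found there: TLR4, LY96, CD14, LBP, TLR2, TLR3, MYD88, TIRAP, TICAM1 and TICAM2. RNA-seq had been run on 6 libraries of unmodified (WT) cells labelled EA.hy926, an established line made by fusing an umbilical vein endothelial cell with A549 lung carcinoma cells; the sample titles also call the cells HUVECs, which are unfused primary cells. The cells had been grown in DMEM with serum, and 3 libraries were titled control and 3 LPS, with 1000 ng/ml LPS given in the protocol and 12 h stated for both groups. The groups rest on the titles, because the treatment entry reads the same in every sample. No label says that the numbered samples came from separate cultures, so the p-values below reflect how far these libraries vary, and that variation may be technical.

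LPS is carried by the serum protein LBP to CD14, a receptor without a cytoplasmic part of its own, and CD14 passes it to the complex of TLR4 with LY96 (also called MD-2), in which LY96 holds the lipid. TLR4 at the plasma membrane recruits TIRAP and MYD88, which lead to NF-kappaB. After the receptor is taken up, it recruits TICAM2 (TRAM) and TICAM1 (TRIF), which lead to IRF3 and type I interferon. TLR2 senses bacterial lipopeptides and uses TIRAP and MYD88, whereas TLR3 senses double-stranded RNA and uses TICAM1 alone. Endothelial cells are known for low CD14 on their surface and can use soluble CD14 from plasma.

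Several members were made as transcripts that encode different proteins, and the sequences that set these apart are given first because the results by transcript turn on them. In each line, coding bases are printed 5′ to 3′ on the gene's strand, from GENCODE 29 on GRCh38, with capitals for the bases after the exon junction at which the transcripts part. TLR4-201 encodes the full receptor of 839 codons. TLR4-203 skips the second exon of TLR4-201 (167 bases), so the first 93 coding bases are shared, and it meets a stop codon after 32 codons (chr9:117704473-117712394, plus strand).
TLR4-201: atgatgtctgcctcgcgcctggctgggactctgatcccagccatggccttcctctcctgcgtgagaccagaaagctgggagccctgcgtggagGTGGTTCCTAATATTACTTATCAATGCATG
TLR4-203: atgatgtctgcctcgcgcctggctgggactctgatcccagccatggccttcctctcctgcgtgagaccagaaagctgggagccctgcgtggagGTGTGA

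TICAM2 shares its locus with TMED7-TICAM2, an annotated read-through gene that begins in the neighbouring gene TMED7. The read-through transcript TMED7-TICAM2-201 has 404 codons, and its last 649 coding bases are also the last 649 of TICAM2-201 (235 codons), ending at the same stop codon. TMED7-TICAM2-202 has the same first 566 coding bases as TMED7-TICAM2-201 but uses another junction, at which 1 further base completes a stop codon, so that its 188 codons hold none of the coding part of TICAM2. The capitals in TICAM2-201 and TMED7-TICAM2-201 are identical (chr5:115581168-115616347 spans these stretches, minus strand). In TICAM2-201 no junction precedes them, and they mark the bases that follow the junction in TMED7-TICAM2-201.
TICAM2-201: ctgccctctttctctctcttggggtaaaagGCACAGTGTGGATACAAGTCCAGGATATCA
TMED7-TICAM2-201: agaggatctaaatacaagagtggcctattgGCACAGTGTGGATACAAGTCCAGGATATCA
TMED7-TICAM2-202: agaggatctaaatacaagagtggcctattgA

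MYD88-201 encodes 296 codons, and MYD88-205 lacks its second exon of 135 bases, or 45 codons, and keeps the reading frame (chr3:38138999-38140417, plus strand). The form without this exon, known as MyD88s, is known as an inhibitor of the pathway.
MYD88-201: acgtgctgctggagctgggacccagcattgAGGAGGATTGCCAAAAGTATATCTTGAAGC
MYD88-205: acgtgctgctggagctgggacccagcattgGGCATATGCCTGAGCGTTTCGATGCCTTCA

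The deposited values are FPKM, fragments scaled to transcript length and to the mapped fragments of the library, so levels of different genes are compared per length. Fragment counts were not analysed here, so the depth behind each value is unknown. The 6 libraries were alike in the summed FPKM of protein-coding genes (256047 to 264878) and in the number of genes at 1 FPKM or more (11078 to 11179). Of 10 endothelial markers, 9 were at 1 FPKM or more in every library (VWF at 108 to 168 FPKM, PECAM1 at 47.5 to 64.9, CDH5 at 64.1 to 105), with EMCN below that in part. All 6 fibroblast markers were also at 1 FPKM or more in every library, with COL1A1 at 1277 to 1565 FPKM. Of 8 epithelial and A549 markers, the keratins KRT7, KRT8, KRT18 and KRT19 were at 1 FPKM or more in every library. The other 4 were below 1 FPKM in every library: EPCAM, SFTPB and CDH1 had means of 0.025, 0.010 and 0.00086 FPKM, and NKX2-1 was listed at 0. The summed FPKM of the endothelial markers was 310 to 417 in control and 391 to 468 in LPS libraries, that of the epithelial and A549 markers was 125 to 138 and 91.2 to 114, and that of the fibroblast markers was 3364 to 3758 and 3344 to 3709. Control and LPS ranges were separate for several of these markers. Of the endothelial markers 5 were higher in LPS (PECAM1, TEK, ERG, CLDN5 and ROBO4) and 1 was lower (EMCN). Of the epithelial and A549 markers 1 was higher (KRT7) and 3 were lower (KRT8, KRT18 and KRT19), and of the fibroblast markers 2 were lower (LUM and COL3A1). Among all tested genes 8.68% were higher and 8.73% lower in this way, and no marker passed the limma threshold. The part of these shifts in the results below was not tested, and fewer cells of a type cannot be told apart from less RNA per cell.

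The cells expressed both chains of the LPS receptor and 3 of its 4 adaptors throughout, little CD14 and almost no LBP. With a gene called expressed at 1 FPKM or more in every library, 6 of the 10 members were expressed (TLR4, LY96, TLR2, MYD88, TIRAP and TICAM1), 3 lay between (TICAM2 in 4 of 6 libraries at 1 FPKM or more, TLR3 and CD14 in 1 each), and LBP was below 1 FPKM in every library. By mean over the 6 libraries the order was MYD88 (9.90 FPKM), TICAM1 (7.57), TLR4 (6.18), LY96 (4.80), TLR2 (2.40), TIRAP (2.30), TICAM2 (1.47), TLR3 (0.823), CD14 (0.542) and LBP (0.00705). The ranges of all neighbours in this order overlapped except those of CD14 and LBP. The TLR4 level includes TLR4-203, the transcript with the early stop codon, which had a mean of 2.39 FPKM. MYD88 was above 78.1% of protein-coding genes by mean FPKM, TLR4 above 68.6% and CD14 above 39.4%.

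**Figure D1:**
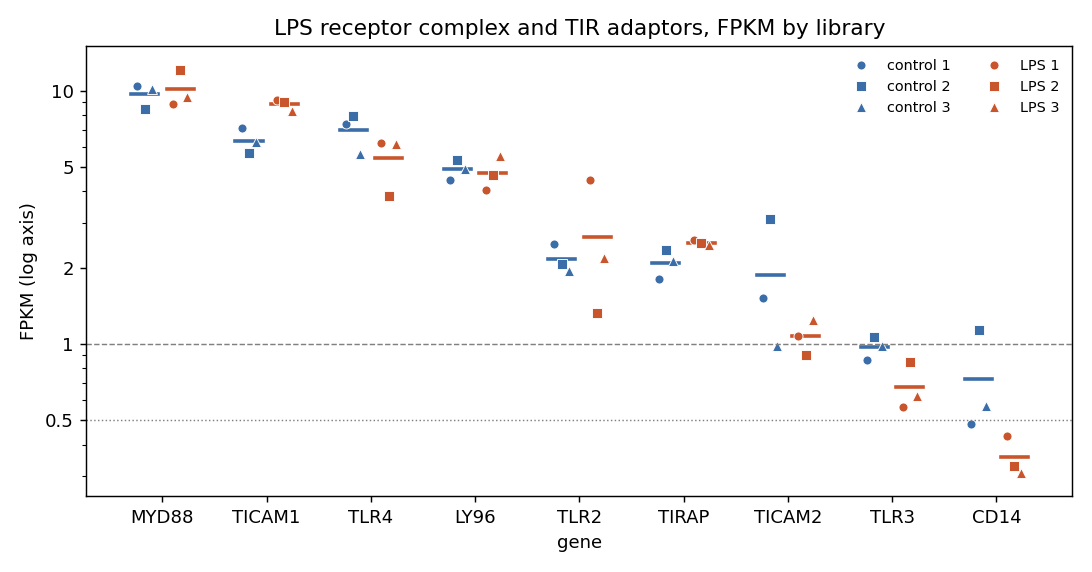
FPKM (log axis) of 9 members in each of the 6 libraries, with control in blue and LPS in orange, one symbol per replicate number, and short bars at the mean of 3 libraries; the dashed line marks 1 FPKM and the dotted line the minimum mean of 0.5 FPKM for testing. LBP is not drawn because it was at 0 in 4 libraries. The 3 LPS values of TICAM1 and of TIRAP lie above their control values, those of TLR3 and CD14 lie below, and the values of the other 5 overlap.

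No member passed the test for a difference between LPS and control. LBP did not reach the minimum mean of 0.5 FPKM, and of the 9 members tested with limma on log2(FPKM + 0.5), 0 had a Benjamini-Hochberg adjusted p under 0.05 over all 12068 genes tested, where 7 genes (0.058%) did, and 0 did without control 2 or without LPS 2 (1046 and 1213 at an unadjusted p under 0.05). At an unadjusted p under 0.05 there was 1 member, TICAM1, beside 10.4% of all tested genes. Control and LPS ranges were separate for 4 of the 9, with TICAM1 and TIRAP higher and TLR3 and CD14 lower in LPS, beside 17.4% of all tested genes (8.68% higher and 8.73% lower). CD14 counts among the 9 only because its control values lifted its mean over the minimum. The median log2 change of the 9 was -0.05, beside -0.01 over all tested genes, with 4 positive and 5 negative values. All log2 changes below are LPS minus control on the log2(FPKM + 0.5) scale, which understates the change of low genes.

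**Figure D2:**
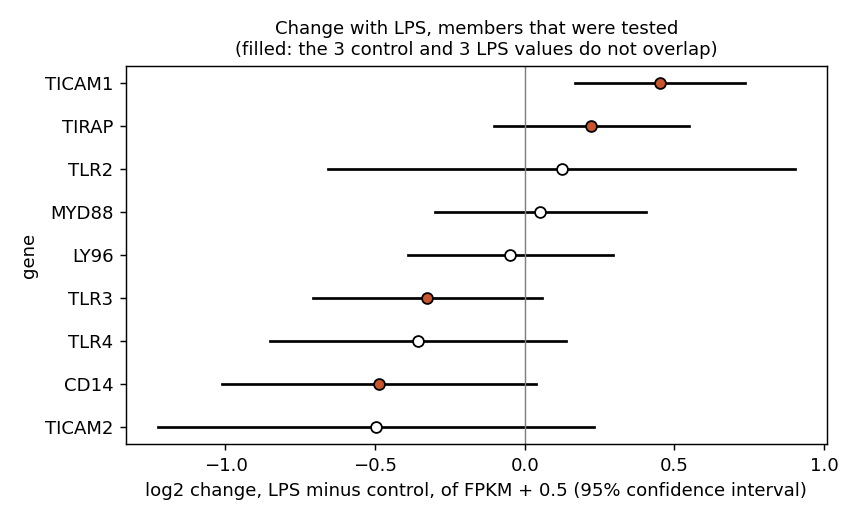
Log2 change, LPS minus control, of FPKM + 0.5 for the 9 tested members, with 95% confidence intervals from limma (3 libraries a group) and filled points where the control and LPS values do not overlap. The interval of TICAM1, from 0.17 to 0.74, is the one that does not include 0, and TICAM2 has the lowest value, -0.50.

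LBP, the serum carrier (chr20:38346482-38377013, ENSG00000129988), was listed at 0 in 4 libraries, at 0.0135 FPKM in control 2 and at 0.0288 in LPS 3. The liver makes most LBP in the body, and 7 of 8 hepatocyte markers were below 1 FPKM in every library, with FGB, HP and TTR listed at 0 throughout.

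CD14, the co-receptor (chr5:140631728-140633701, ENSG00000170458), was at 0.484, 1.14 and 0.566 FPKM in control 1 to 3 and at 0.431, 0.329 and 0.309 in LPS 1 to 3. Each LPS library was below every control library, and control 2 alone was above 1 FPKM. The means were 0.729 ± 0.355 and 0.356 ± 0.066 FPKM (SD, n = 3 each), and the log2 change was -0.49. CD14 reached the minimum mean of 0.5 FPKM only through its control values and did not reach it without control 2, so its test (limma adjusted p = 0.506) supports nothing. Each library assigned nearly all of CD14 to 1 of 2 transcripts with coding sequences of the same length, 375 codons. CD14-201 took all of it in control 1, control 2 and LPS 1 and 99.5% in LPS 2, whereas CD14-202, named after its values had been seen, took all of it in control 3 and LPS 3. CD14 is best known from monocytes and macrophages. Of 12 markers of these cells, 5 were listed at 0 in every library (AIF1, CD163, FCGR3A, PTPRC and TYROBP), and 10 stayed below 1 FPKM. The markers' summed FPKM was 8.08 to 13.4 in control and 12.1 to 17.3 in LPS libraries, most of it from LAPTM5 and CD68. LAPTM5 was higher in every LPS library, at 3.84 to 6.22 FPKM in control and 7.33 to 10.4 in LPS (limma adjusted p = 0.336). The ranges of CD68 overlapped.

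TLR4, the signalling chain of the LPS receptor (chr9:117704175-117724735, ENSG00000136869), was at 7.36, 7.92 and 5.62 FPKM in control 1 to 3. In LPS 1 to 3 it was at 6.22, 3.82 and 6.15 FPKM. The groups overlapped, because control 3 was lower than LPS 1 and LPS 3, and LPS 2 was the lowest of the 6. The means were 6.97 ± 1.20 and 5.40 ± 1.37 FPKM (SD, n = 3 each), and the log2 change was -0.36 (95% confidence interval -0.85 to 0.14; limma adjusted p = 0.602). Without LPS 2 it was -0.15.

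The TLR4 transcript with the early stop codon varied most between libraries. TLR4-203 was at 3.44, 3.77 and 0 FPKM in control 1 to 3 and at 3.14, 0.0657 and 3.94 in LPS 1 to 3. In each group it was above 3 FPKM in 2 libraries and at or near 0 in 1, and it made up 0 to 64.0% of the gene. TLR4-201, the full-length form, was at 2.17, 1.59 and 3.07 FPKM in control and at 1.51, 2.21 and 1.29 in LPS libraries. It was highest in control 3 and in LPS 2 within their groups, the 2 libraries with the least TLR4-203. TLR4-202, whose coding sequence begins 40 codons into that of TLR4-201 and has 799 codons, was at 1.25, 2.29 and 2.15 FPKM in control and at 1.38, 1.33 and 0.896 in LPS libraries. The limma log2 changes were 0.04 for TLR4-203 (adjusted p = 0.998), -0.34 for TLR4-201 (adjusted p = 0.828) and -0.48 for TLR4-202 (adjusted p = 0.789). With 1 library left out, TLR4-201 ranged from -0.53 (without control 2) to -0.15 (without control 3).

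The deposited gene value is the sum of its transcripts, so the TLR4 level includes TLR4-203. The other TLR4 transcripts together came to 3.92, 4.15 and 5.62 FPKM in control 1 to 3 and to 3.08, 3.75 and 2.21 in LPS 1 to 3, a sum chosen after the values had been seen. On this sum the groups did not overlap, and the log2 change was -0.53 (95% confidence interval -1.02 to -0.05; limma adjusted p = 0.445). TLR4-201 and TLR4-202 alone summed to 3.43, 3.88 and 5.22 FPKM in control and to 2.88, 3.55 and 2.19 in LPS libraries, where LPS 2 lay above control 1. The genes AL160272.2 (mean 0.535 FPKM), annotated on the same strand, and RNU6-1082P (mean 0.561 FPKM) overlap TLR4, and whether the counting used strand is not given in the sources used here.

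**Figure D3:**
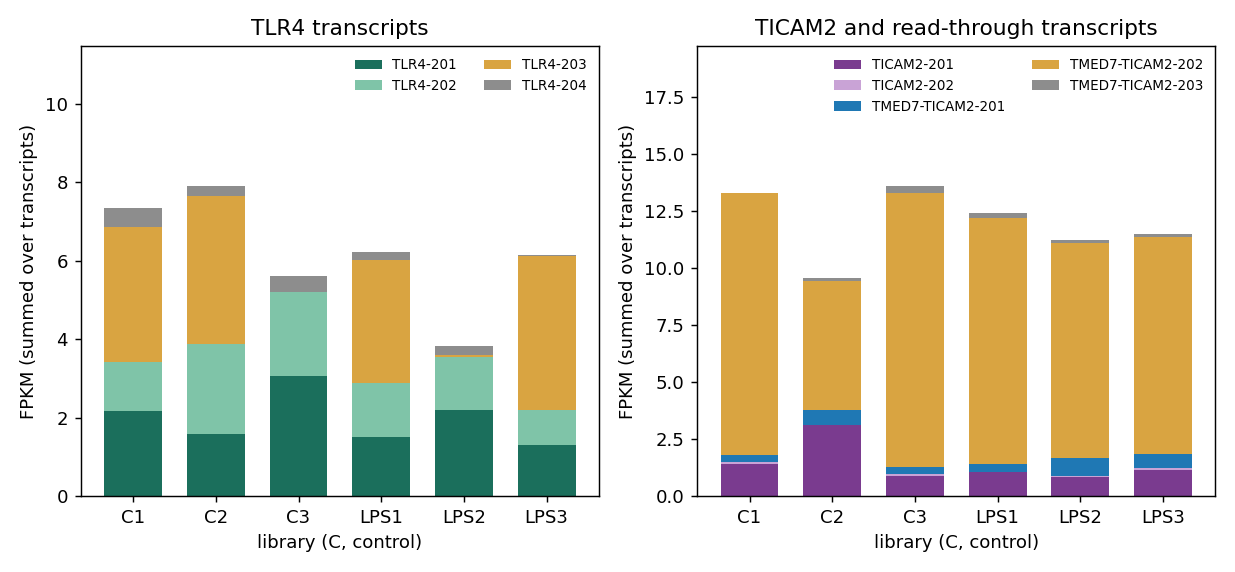
Stacked FPKM of the transcripts of TLR4 (left) and of TICAM2 with the read-through gene TMED7-TICAM2 (right) in each library, C1 to C3 for control and LPS1 to LPS3. TLR4-203, in yellow on the left, is missing from C3 and nearly so from LPS2, and TMED7-TICAM2-202, in yellow on the right, makes up most of the signal of the TICAM2 locus in every library.

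LY96, the chain that holds the lipid (chr8:73991352-74029087, ENSG00000154589), was at 4.44, 5.30 and 4.90 FPKM in control 1 to 3 and at 4.05, 4.62 and 5.50 in LPS 1 to 3. All control values lay within the range of the LPS values, with LPS 1 the lowest and LPS 3 the highest of the 6. The log2 change was -0.05 (95% confidence interval -0.39 to 0.29; limma adjusted p = 0.935), and it was 0.05 without LPS 1. LY96-201, with 160 codons, was at 4.10, 2.80 and 4.65 FPKM in control and at 2.54, 1.48 and 4.03 in LPS libraries. The shorter LY96-202, with 130 codons, was at 0.304, 2.50 and 0 FPKM in control and at 1.15, 3.13 and 1.02 in LPS libraries. Neither passed the test (limma log2 changes -0.51 and 0.97, adjusted p = 0.828 for both). Single libraries moved both: LY96-201 was -0.20 without LPS 2 and -0.80 without LPS 3, and LY96-202 was 0.43 without control 3, 0.57 without LPS 2 and 1.72 without control 2. LY96-202 was more than LY96-201 in LPS 2 alone.

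The ratio of TLR4 to LY96 FPKM was 1.66, 1.49 and 1.15 in control 1 to 3 and 1.54, 0.826 and 1.12 in LPS 1 to 3. By these gene values TLR4 was the higher of the pair in 5 of 6 libraries, with TLR4-203 included. Without TLR4-203, TLR4 was at 3.92, 4.15 and 5.62 FPKM in control 1 to 3. In LPS 1 to 3 it was then at 3.08, 3.75 and 2.21 FPKM. On this sum, chosen after the values had been seen, TLR4 was below LY96 in every library but control 3. For the gene values, the difference of the mean log2 ratios, LPS minus control, was -0.33 (two-sided exact permutation p = 0.4), in a design where the smallest possible p is 0.1. It was -0.11 without LPS 2, -0.22 without control 1 and -0.56 without LPS 1.

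TLR2, the lipopeptide receptor (chr4:153684070-153705702, ENSG00000137462), was at 2.47, 2.07 and 1.95 FPKM in control 1 to 3 and at 4.44, 1.33 and 2.17 in LPS 1 to 3. The LPS libraries held both the highest and the lowest value, and the SD was 1.61 FPKM in LPS against 0.273 in control libraries (n = 3 each). The log2 change was 0.12 (95% confidence interval -0.66 to 0.90; limma adjusted p = 0.924). Without LPS 1 it turned negative, -0.26. TLR2-203, which encodes 784 codons, was at 1.82, 0.330 and 0.603 FPKM in control and at 3.85, 0.696 and 0.00245 in LPS libraries, and it too was highest in LPS 1.

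TLR3, the receptor for double-stranded RNA (chr4:186069152-186088069, ENSG00000164342), was at 0.862, 1.07 and 0.982 FPKM in control 1 to 3 and at 0.561, 0.844 and 0.625 in LPS 1 to 3. All LPS values were below all control values, with LPS 2 just below control 1. The log2 change was -0.33 (95% confidence interval -0.71 to 0.06; limma adjusted p = 0.531). TLR3-201, the full coding transcript with 904 codons, separated the groups further, at 0.741, 1.02 and 0.945 FPKM in control and at 0.481, 0.483 and 0.486 in LPS libraries. Its log2 change was -0.51, given as a description, because this transcript reached the minimum mean through its control values (means 0.903 and 0.483 FPKM).

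MYD88, the adaptor shared by TLR4 and TLR2 (chr3:38138478-38143022, ENSG00000172936), was at 10.5, 8.46 and 10.1 FPKM in control 1 to 3 and at 8.83, 12.1 and 9.40 in LPS 1 to 3. The groups overlapped, with control 2 lowest and LPS 2 highest, and the log2 change was 0.05 (95% confidence interval -0.30 to 0.40; limma adjusted p = 0.932), and -0.08 without LPS 2. MYD88-212 held 57.5% of its mean FPKM. This transcript was at 5.80, 5.88 and 6.67 FPKM in control and at 3.12, 9.15 and 3.52 in LPS libraries. Its annotated model of 930 bases holds the coding sequence alone, with 309 codons, of which the last 296 are those of MYD88-201, whose model has 2850 bases.

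MYD88-201 was at 0.211, 0.302 and 0.332 FPKM in control 1 to 3 and at 1.85, 0.446 and 1.80 in LPS 1 to 3. All LPS values were higher, and in LPS 1 and LPS 3, where MYD88-201 was high, MYD88-212 was low. The log2 change of MYD88-201 was 1.14 (limma adjusted p = 0.741), a description alone, because this transcript reached the minimum mean only through its LPS values (means 0.282 and 1.37 FPKM). MYD88-212 and MYD88-201 together came to 6.40 ± 0.53 FPKM in control and 6.63 ± 2.57 in LPS libraries (SD, n = 3 each), and these overlapped. MYD88-216, a model not in GENCODE 29, was at 1.74, 1.17 and 1.21 FPKM in control and at 2.24, 0.922 and 2.50 in LPS libraries. MYD88-205, the form without the second exon, is named for its known role although it was too low to be tested. It was at 0.752, 0.0250 and 0.299 FPKM in control and at 0.00678, 0.223 and 0.0881 in LPS libraries, at most 7.18% of the gene.

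TIRAP, which brings MYD88 to the membrane (chr11:126283065-126298845, ENSG00000150455), was at 1.81, 2.35 and 2.12 FPKM in control 1 to 3 and at 2.57, 2.51 and 2.46 in LPS 1 to 3. The LPS values lay close together above the control values, and the log2 change was 0.22 (95% confidence interval -0.10 to 0.55; limma adjusted p = 0.626). The transcripts that carried TIRAP changed from library to library. TIRAP-202 was at 0.0113, 1.11 and 0.201 FPKM in control and at 0.230, 2.24 and 0 in LPS libraries, and TIRAP-206 was at 0.152, 1.17 and 1.74 FPKM in control and at 0.145, 0.0658 and 0.145 in LPS libraries. TIRAP-206 is annotated as subject to nonsense-mediated decay and was not in the table of protein-coding transcripts, so it was not tested, and all its LPS values were below all its control values. TIRAP-203, named after its values had been seen, was listed at 0 in every library but LPS 1, where it was at 2.18 FPKM. TIRAP-201 and a model not in GENCODE 29 (TCONS_00057132) were likewise named after their values had been seen. TIRAP-201 made up 50.5% of the gene in control 1 and 36.8% in LPS 3. TCONS_00057132 made up 53.5% in LPS 3. TIRAP-202 and TIRAP-203 are annotated as protein-coding, with 221 codons each.

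TICAM1, the adaptor toward IRF3 (chr19:4815932-4831704, ENSG00000127666), stood closest to the threshold of the 9 members. It was at 7.08, 5.68 and 6.24 FPKM in control 1 to 3 and at 9.14, 8.99 and 8.31 in LPS 1 to 3. The lowest LPS library was above the highest control library. The means were 6.33 ± 0.71 and 8.82 ± 0.44 FPKM (SD, n = 3 each), and the log2 change was 0.45 (SE 0.12; 95% confidence interval 0.17 to 0.74), or 1.37-fold with bounds of 1.12 and 1.67. The limma adjusted p was 0.305, at rank 269 of 12068 genes by p. Over its 15 alternatives the adjusted p ranged from 0.290 to 0.593. The whole value came from TICAM1-201, with 712 codons.

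TICAM2, which links TLR4 to TICAM1 (chr5:115578650-115602479, ENSG00000243414), was at 1.51, 3.12 and 0.982 FPKM in control 1 to 3 and at 1.07, 0.906 and 1.24 in LPS 1 to 3. Control 2 was well above the other 5 libraries, and control 3 lay among the LPS values. The log2 change was -0.50 (95% confidence interval -1.23 to 0.23; limma adjusted p = 0.626), -0.14 without control 2 and -0.79 without control 3. TICAM2-201 carried 88.5% to 99.4% of the gene.

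The read-through gene was listed above TICAM2 in every library. TMED7-TICAM2 was at 11.8, 6.43 and 12.6 FPKM in control 1 to 3 and at 11.3, 10.3 and 10.3 in LPS 1 to 3. Control 2, the library with the most TICAM2, had the least TMED7-TICAM2, and the 2 genes together came to 13.3, 9.56 and 13.6 FPKM in control and to 12.4, 11.2 and 11.5 in LPS libraries. Between 87.7% and 97.4% of the read-through gene was TMED7-TICAM2-202, whose coding sequence stops before the coding part of TICAM2. Its annotated span (chr5:115578651-115626014) runs on across that part, downstream of its stop codon. TMED7-TICAM2-201, whose coding sequence includes the last 649 coding bases of TICAM2, was at 0.301, 0.678 and 0.300 FPKM in control and at 0.330, 0.779 and 0.596 in LPS libraries. TICAM2-201 and TMED7-TICAM2-201 hold these 649 bases within their own coding sequence. Together they summed to 1.71, 3.78 and 1.17 FPKM in control and to 1.37, 1.60 and 1.75 in LPS libraries, and TMED7-TICAM2-202 is not in this sum. Because these models share exons, the split of fragments between them is uncertain. AC010226.1, annotated on the opposite strand of the locus, had a mean of 5.22 FPKM. Its span overlaps that of TICAM2, and whether their exons overlap was not examined. Without strand, fragments from any shared bases could not be told apart.

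The 2 arms below the receptor were set against each other as the ratio of MYD88 plus TIRAP to TICAM1 plus TICAM2. It was 1.43, 1.23 and 1.70 in control 1 to 3 and 1.12, 1.47 and 1.24 in LPS 1 to 3, so the MYD88 arm was the higher in all 6 libraries. The difference of the mean log2 ratios, LPS minus control, was -0.18 (two-sided exact permutation p = 0.5; smallest possible p 0.1). It was -0.06 without control 3, -0.09 without LPS 1, -0.29 without LPS 2 and -0.29 without control 2.

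By transcript, 59 models of the 10 members were listed, 39 of them in the table of protein-coding transcripts, and 13 of those reached a mean of 0.5 FPKM. Of these 13, limma called 0 at an adjusted p under 0.05, beside 26 of 20563 transcripts (0.126%), and 2, MYD88-201 and TICAM1-201, had an unadjusted p under 0.05, beside 6.44%. Of these 2, MYD88-201 was tested only through its LPS values, and TICAM1-201 repeats the value of its gene.

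Other genes of the pathway were read from 6 lists with 54 genes, of which 36 were tested and 0 passed the limma threshold of adjusted p under 0.05. An unadjusted p under 0.05 was found for 4 of the 36, near the 10.4% of all tested genes. None of the other 7 Toll-like receptors reached testing. TLR1 and TLR6, the partners of TLR2, had means of 0.399 and 0.383 FPKM, TLR5 had 0.0610, and TLR8 and TLR10 were listed at 0 in every library.

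All 8 genes that fold or move Toll-like receptors were expressed, with a median log2 change of -0.08. The chaperone HSP90B1 (gp96) was at 255 ± 32 FPKM in control and 228 ± 33 in LPS libraries (SD, n = 3 each), and LRRC59 and TMED7 had means of 75.1 and 27.2 FPKM. Of 10 other proteins that bind or degrade LPS, 4 were tested (median -0.08). The intracellular LPS sensor CASP4 had a mean of 18.4 FPKM, SCARB1 11.7 and the lipid transfer protein PLTP 3.25, while CASP5 and the LPS-degrading enzyme AOAH were listed at 0. Of 9 inhibitors, 6 were tested (median 0.07), led by SIGIRR (15.2 FPKM), TOLLIP (13.9) and RNF216 (12.7), and CD180 and LY86, which pair in B cells and other immune cells, were listed at 0.

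Of 6 further TIR receptors that use MYD88, 4 were tested (median -0.11). The interleukin-1 receptor IL1R1 had a mean of 35.7 FPKM, the interleukin-33 receptor IL1RL1 18.3 and their partner IL1RAP 3.78, so IL1R1 and IL1RL1 were each listed at more than TLR4 or TLR2 by mean. All 14 kinases, ligases and factors below the adaptors were expressed and tested (median 0.06), among them IRAK1 with a mean of 37.8 FPKM, IRF3 with 15.5 and RIPK1 with 7.75.

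**Figure D4:**
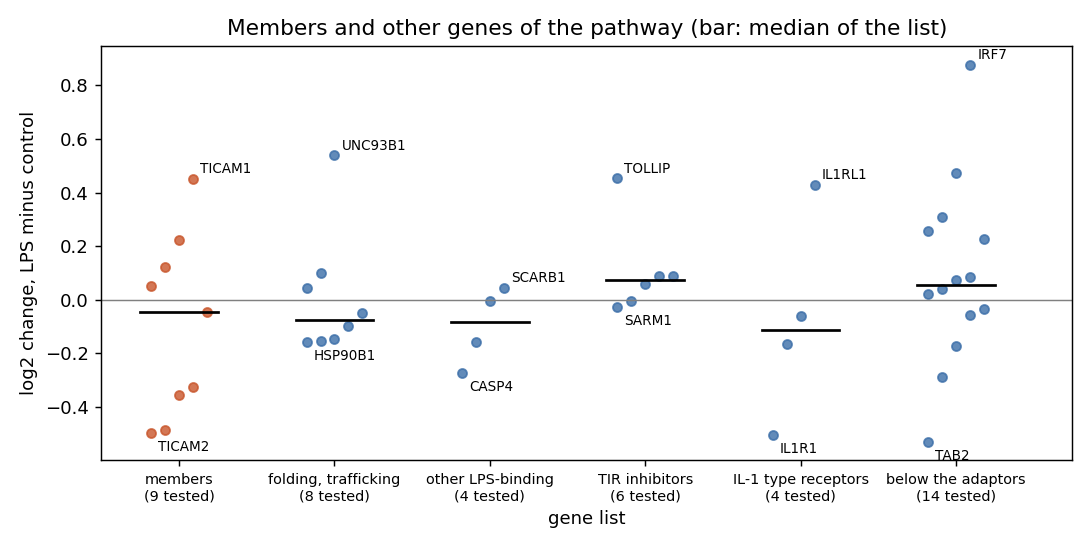
Log2 change, LPS minus control, of each tested gene among the members (orange) and in 5 other lists of the pathway (blue), with a black bar at each median and the lowest and highest gene of each list named. The medians lie between -0.11 and 0.07, and IRF7 has the highest value, 0.88.

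Control and LPS ranges were separate in 5 of the 36 genes, no larger a share than the 17.4% of all tested genes, so their values are given as a description. They were chosen after their values had been seen: UNC93B1, RIPK1, IRAK2 and IRF7 were higher and CASP4 was lower in LPS libraries. IRF7, an interferon regulatory factor reached through MYD88 in some cells, was at 2.84, 3.81 and 2.96 FPKM in control 1 to 3 and at 7.19, 5.31 and 6.41 in LPS 1 to 3 (limma log2 change 0.88, adjusted p = 0.173). UNC93B1, which escorts TLR3 and other receptors of nucleic acids to endosomes, was at 6.31, 7.16 and 6.34 FPKM in control and at 11.5, 8.24 and 10.0 in LPS libraries (log2 change 0.54, limma adjusted p = 0.299). RIPK1, a kinase that binds TICAM1, was at 6.96, 6.74 and 7.37 FPKM in control and at 8.47, 8.43 and 8.52 in LPS libraries (log2 change 0.26, limma adjusted p = 0.457). CASP4 was at 18.0, 22.1 and 20.4 FPKM in control and at 17.7, 16.3 and 15.6 in LPS libraries (log2 change -0.27, limma adjusted p = 0.463), and IRAK2 had a log2 change of 0.31 (limma adjusted p = 0.494).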

How the data were processed

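RNA-seq was analysed from 5 deposited tables of FPKM, in 6 libraries of 3 control and 3 LPS samples, grouped by title. The submitters' processing notes name HISAT2, StringTie and the mouse build mm9, whereas the deposited files hold human gene identifiers and coordinates; the gene spans of 8 of the 10 members are those of GENCODE 29 on GRCh38, and the authors' own annotation is not given in the sources used here. Gene FPKM in the authors' tables equal the sum of the listed transcripts of each member to within 4e-05. Versions of the authors' tools and the depth are not given.

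From these values, log2(FPKM + 0.5) was tested with limma 3.58.1 (R 4.3.3; eBayes with trend, two-sided) on all features that averaged 0.5 FPKM or more, with Benjamini-Hochberg adjustment over all of them and a threshold of 0.05; ratios were tested by exact permutation of libraries. The script was tested on simulated data. All 10 members are named; a transcript is named at a mean of 0.5 FPKM or more or as the most abundant of its gene; from each other list, the genes past the threshold or else the 3 with the highest mean; exceptions are marked in the text. The members and lists were chosen with earlier results of these data known. No library held values that duplicated another. Alternatives were other pseudocounts, filters, scalings, library weights, robust eBayes, a replicate block and leaving out each library. Protein sequences were not used here.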

Additional observations from a re-analysis of the deposited data

How the results depend on the processing

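limma called 0 members, 0 of their transcripts and 0 genes of the other lists under every alternative run (15, 11 and 15), with 1 or 2 members at an unadjusted p under 0.05 in each of the 15. CD14 and TLR3 were not tested at a minimum mean of 1 FPKM, and 8 members were tested without control 2. TICAM1, TIRAP, TLR4, TLR3, CD14 and TICAM2 kept their direction in each alternative that tested them. Leaving out 1 library turned LY96 (range -0.15 to 0.05, positive without control 2, 0.01, or without LPS 1, 0.047), MYD88 (-0.08 to 0.14, negative without control 2, -0.04, or without LPS 2, -0.078), TLR2 (-0.26 to 0.45), TIRAP-202 (-0.089 to 0.76), TLR2-203 (-0.73 to 0.83, and -0.28 with a pseudocount of 0.1) and TLR4-203 (-0.97 to 0.98). The 7 genes called by limma over the whole table became 0 without the filter on low genes (1668 at an unadjusted p under 0.05), and 0 to 8 with 1 library left out (0 without control 2, with 1046 unadjusted, and 0 without LPS 2, with 1213; 4 without control 1, 2 without LPS 3), while the 26 transcripts became 28 to 53. The cause was not tested. With the replicate block the genes called fell to 0 (1451 unadjusted) and the transcripts to 0 (1171 unadjusted). Samples with the same number were not shown to be paired. The correlations of their deviations from the group means were 0.017, 0.105 and 0.060. Those of samples with different numbers ranged from -0.084 to 0.023. Control 2 and control 3 correlated best with the LPS library of the same number, whereas control 1 correlated best with LPS 3 (0.023). The block changed no other call. FPKM without counts give no depth, so members below 1 FPKM have no stated counting error.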
